A study of Mus musculus with 10 samples.

Results

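Transcripts of 10 genes that carry, import, export, store and sense iron were compared in the neocortex of young and old mice. The genes were Trf, Tfrc, Slc11a2, Slc40a1, Cp, Fth1, Ftl1, Ireb2, Aco1 and Hmox1. They were found through the gene identifier that the deposited table gives for each probe set, and 28 probe sets carried 1 of these 10 genes and no other, of 45037 probe sets and 17876 named genes in all. A probe set is a group of short probes that together measure 1 transcript. The 10 arrays came from 5 male B6C3F1 mice aged 5 months, numbered 1 to 5, and 5 aged 30 months, numbered 2 to 6, with 1 Affymetrix Mouse 430 2.0 array for each mouse. The labels give the B6C3F1 strain as a B6xC3 F1 hybrid. All of them were housed singly and fed the AIN-93M control diet, and the labels name no other treatment or genotype. The comparison asks which iron transcripts of the neocortex differ between the ages. Array medians of the deposited signal ran from 114.5 to 122.6. Precision is limited by the number of arrays.

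Iron travels in blood and brain fluid bound to transferrin and enters cells when the transferrin receptor takes the complex into endosomes, from which Slc11a2 moves it to the cytosol. Ferroportin, the product of Slc40a1, lets iron leave the cell together with a ferroxidase such as ceruloplasmin, and ferritin shells of heavy and light chains store what is not used. The regulatory proteins encoded by Aco1 and Ireb2 bind iron-responsive elements in several of these messenger RNAs and set their translation or stability, so a transcript level need not follow the protein level. In the brain, oligodendrocytes are known as iron-rich cells and as a source of transferrin, the choroid plexus also makes it, and astrocytes are known to carry ceruloplasmin on their surface.

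On the brightest probe set of each gene, transferrin, ferritin light chain and ceruloplasmin were higher at 30 months and the importer Slc11a2 was lower. The transferrin receptor, ferritin heavy chain, ferroportin and both regulatory proteins did not pass the test. Other probe sets limit 2 of these calls: 2 further ones of Slc11a2 changed by 0.0 and 0.06, and a dim one of Ftl1 by -0.67. The ceruloplasmin rise was a fold of 1.75, and 1.35 without 30-month mouse 4. Trf had the largest of the 9 changes tested, a fold of 1.94 (log2 change 0.96, SE 0.11, n = 5 at each age). Of the 10 genes, 9 had a probe set bright enough to be tested, with a mean log2 signal above 6.89, the median of all probe sets. Hmox1 was dimmer. By limma, with adjusted p-values over all 11963 genes tested and calls at an adjusted p under 0.05, 3 of the 9 rose, 1 fell and 5 were not called. That is 44.4% called, beside 46.3% of all genes tested, of which 34% were higher and 12.3% lower. The share of calls among the iron genes was therefore near that of all genes. Their median log2 change was 0.06, and that of all genes was 0.08. The ages did not overlap for 3 of the 9 (Trf, Cp and Slc11a2), beside 30.2% of all genes. Of all called genes 73.5% were higher, but 49.1% were when the arrays were given a common median over the tested probe sets, and 52.9% after quantile normalization. Under those scalings the calls of Trf, Ftl1 and Slc11a2 held, and Cp was called after quantile normalization but not with the common median (adjusted p = 0.0797).

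**Figure D1:**
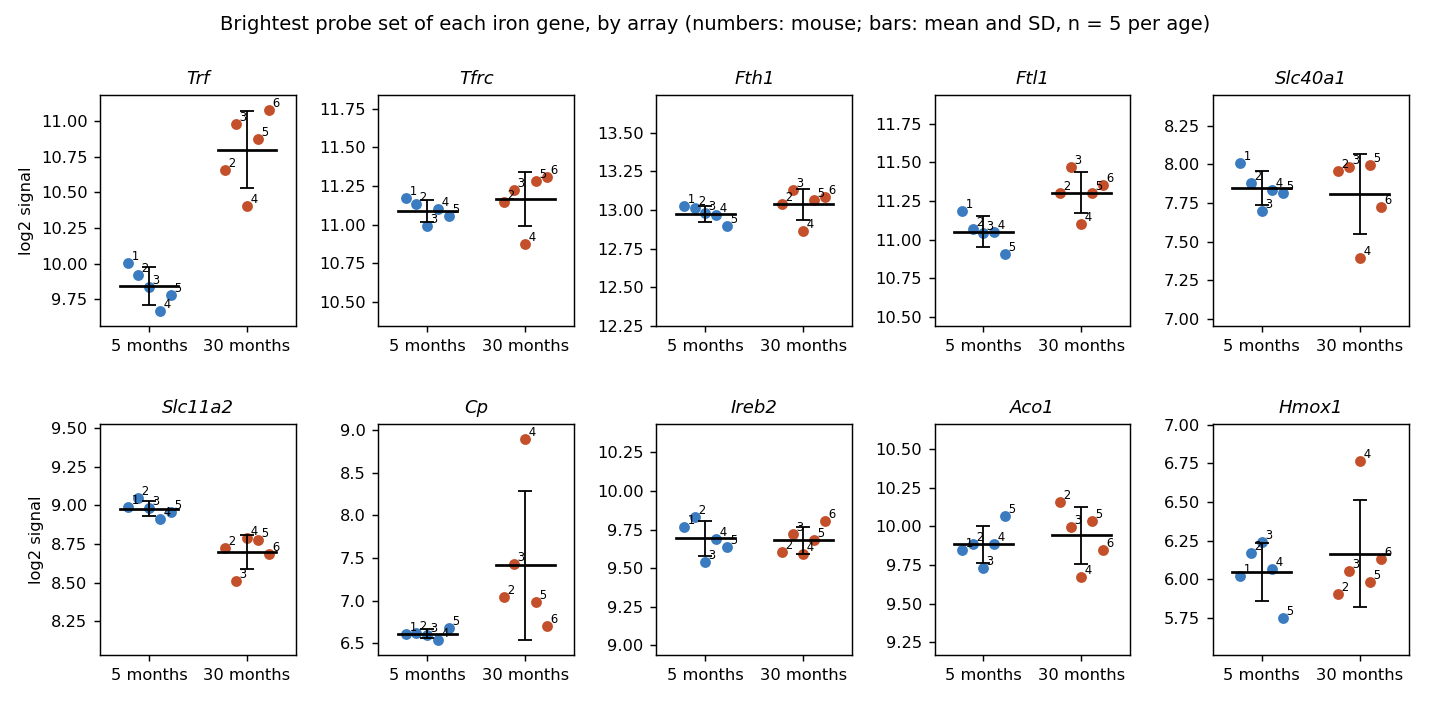
Log2 signal of the brightest probe set of each of the 10 iron genes (vertical axis, with a span of its own in each panel) on the 5 arrays of each age, with mouse numbers, the mean as a line and the SD as a bar. The ages are apart for Trf, Slc11a2 and Cp, and 30-month mouse 4 is the lowest old array for Trf, Tfrc, Fth1, Ftl1, Slc40a1, Ireb2 and Aco1 and the highest for Cp, Slc11a2 and Hmox1.

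One old array recurred at the edge of these values. Of the 15 iron probe sets above the brightness filter, 30-month mouse 4 had the lowest of the 5 old signals in 12 and the highest in the other 3. Several of these 15 measure the same gene. On the 1 probe set tested for each of the 9 genes, this array was the lowest in 7 and the highest in 2. Over all genes tested, also with 1 probe set each, this array was the lowest old array in 30.5% and the highest in 19.9%. Without it, 4 of the iron genes tested were called higher and 1 lower: Tfrc (log2 change 0.15, adjusted p = 0.0318) and Fth1 (0.10, adjusted p = 0.0223) joined Trf and Ftl1. Cp then fell below the brightness filter and was not tested. Over all genes, 4124 were then called higher and 1437 lower, beside 4068 and 1466 with all 10 arrays. Mouse 4 was singled out for its low values, and leaving it out raises the old means of Tfrc and Fth1. Their calls without it are therefore no independent evidence of a rise.

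Trf encodes transferrin, the plasma carrier of ferric iron, and lies on chromosome 9 (103208876 to 103230286, GRCm38.p6). Its brighter probe set, 1425546_a_at, read 1030, 969, 915, 813 and 881 in the 5-month mice 1 to 5 and 1618, 2024, 1353, 1880 and 2165 in the 30-month mice 2 to 6. Every old array lay above every young one, and the lowest old value was that of mouse 4. The mean log2 signal went from 9.84 ± 0.13 in the young to 10.8 ± 0.27 in the old (SD, n = 5 each), a fold of 1.94 with a 95% interval of 1.64 to 2.29 (limma, adjusted p = 3.43e-05).

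The second Trf probe set, 1442049_at, read 174, 170, 209, 221 and 213 at 5 months and 288, 300, 239, 343 and 301 at 30 months. Again no old array fell among the young ones. Its log2 change was 0.58 (adjusted p = 0.00327 over all probe sets, limma). The log2 difference between the 2 Trf probe sets had a mean of 2.23 ± 0.3 and 2.61 ± 0.18 (SD, n = 5 each), and its change of 0.38 did not pass an exact permutation test (p = 0.0794, two-sided, 0.119 adjusted over 6 such comparisons of probe sets within a gene). In the authors' deposited table the fold changes of these probe sets were 1.97 and 1.49, and both met the authors' criteria, a lower bound of the fold above 1.2 and a p-value of at most 0.1.

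Oligodendrocyte markers were read beside Trf. In bulk tissue, fewer or more cells of a type and less or more RNA per cell cannot be told apart. Of 12 oligodendrocyte markers 6 rose and none fell, with a median log2 change of 0.32, beside 34% of all genes higher and 46.3% called. Mbp, a major myelin protein gene, had a log2 change of 0.03 (adjusted p = 0.503). The summed signal of the 12 markers was 29292 to 31578 at 5 months and 29707 to 37123 at 30 months, lowest among the old in mouse 4, where Trf was lowest too, and none of the 12 was at the floor of 1 on all arrays. The log2 signal of Trf minus the mean log2 signal of the 12 markers went from -0.49 ± 0.08 in the young to 0.18 ± 0.1 in the old (SD, n = 5 each). The change of 0.67 had an exact permutation p of 0.00794, the smallest that 5 against 5 arrays can give (0.0119 adjusted over 3 differences between genes or lists). The old arrays read 0.11, 0.21, 0.15, 0.1 and 0.35, and the young ones -0.39, -0.47, -0.46, -0.6 and -0.52. On this measure mouse 4 lay among the other old arrays. The log2 changes of the 12 markers themselves ran from -0.06 to 0.68, so the difference depends on the markers taken. It also depends on the Trf probe set. The one used changed by 0.96, while the second changed by 0.58 and was not set against the markers. Lists and tests were chosen with earlier results of these data known, so this p-value is no independent evidence. The part of oligodendrocytes in the Trf change was not tested.

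**Figure D2:**
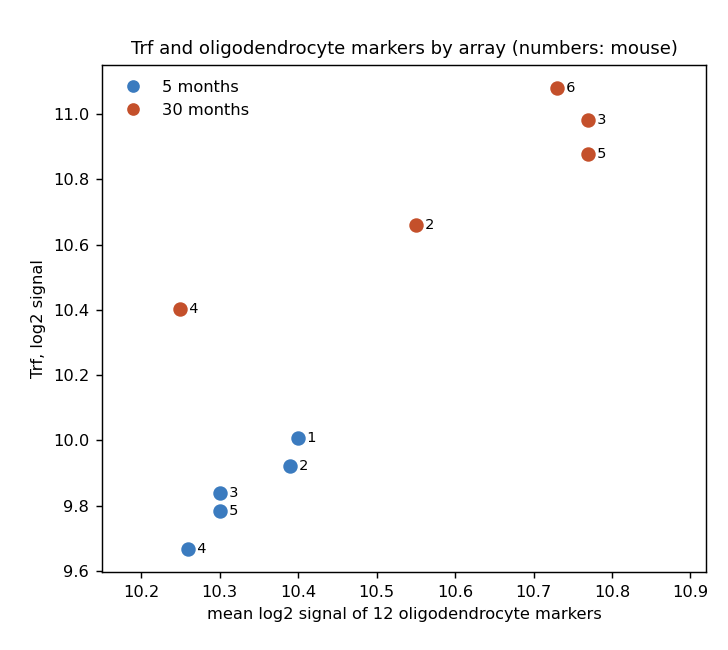
Log2 signal of Trf (vertical axis) against the mean log2 signal of 12 oligodendrocyte markers (horizontal axis) on each of the 10 arrays, with mouse numbers. The 5 old arrays lie above the 5 young ones, and 30-month mouse 4 is the lowest of the old arrays on both axes.

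Choroid plexus, another known source of transferrin, left a variable trace in the tissue. Ttr, its abundant secreted carrier protein, read 10541, 10218, 7969, 10285 and 9546 at 5 months and 4666, 10851, 2898, 3460 and 10050 at 30 months, so old mice 2, 4 and 5 were low and mice 3 and 6 were like the young. Of 8 choroid plexus markers 7 were on the array, 2 were tested and both fell (median log2 change -0.55), beside 12.3% of all genes lower. The other tested marker was lower on every old array than on any young one (log2 change -0.29, limma, adjusted p = 0.00806). The call of Ttr (log2 change -0.81, adjusted p = 0.0445) was lost in 8 of 10 fits that left out an array (adjusted p up to 0.114) and in 7 of 17 other settings (up to 0.221). The summed signal of the 7 was 8925 to 11556 at 5 months and 3939 to 12045 at 30 months, with none at the floor on all arrays. Ttr made up most of this sum, 10541 of 11556 in 5-month mouse 1. Trf read 1618, 1353 and 1880 in old mice 2, 4 and 5, where the sum was low, and 2024 and 2165 in old mice 3 and 6. The part of choroid plexus in the Trf change was not tested.

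Tfrc encodes the transferrin receptor (chromosome 16, 32608896 to 32632794). Its brightest probe set, 1452661_at, read 2308, 2249, 2033, 2194 and 2125 at 5 months and 2270, 2386, 1878, 2494 and 2534 at 30 months. The ages overlapped, with old mouse 4 the lowest of all 10 arrays. The log2 change was 0.08 with a 95% interval of -0.08 to 0.24 (limma, adjusted p = 0.411), and its sign turned to -0.02 after quantile normalization.

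A dimmer Tfrc probe set, 1422966_a_at, read 471, 477, 483, 482 and 439 at 5 months and 456, 428, 338, 483 and 384 at 30 months. It was not called (log2 change -0.18, adjusted p = 0.167). The log2 difference between the 2 probe sets went from 2.21 ± 0.09 in the young to 2.47 ± 0.16 in the old (SD, n = 5 each), every old array being above every young one. The change of 0.26 passed the exact permutation test (p = 0.00794, 0.0476 adjusted over the 6 comparisons). The third Tfrc probe set, 1422967_a_at, was below the filter at 46.1 to 76.9 and 32.7 to 54.3. The 2 probe sets of the receptor thus differed in their change with age. Which parts of the transcript they cover was not examined.

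Slc11a2 encodes DMT1, the divalent metal transporter that moves ferrous iron out of endosomes (chromosome 15, 100387898 to 100424209), and its messenger RNA is known in forms with and without an iron-responsive element. The brightest probe set, 1452078_a_at, read 508, 529, 506, 482 and 496 at 5 months and 423, 365, 442, 439 and 411 at 30 months. All old arrays were below all young ones. Its mean log2 signal was 8.98 ± 0.05 and 8.7 ± 0.11 (SD, n = 5 each), a log2 change of -0.28 with a 95% interval of -0.42 to -0.15 (limma, adjusted p = 0.00278).

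The other Slc11a2 probe sets above the filter did not move with it. Probe set 1426441_at read 302, 330, 309, 321 and 293 at 5 months and 311, 338, 284, 304 and 322 at 30 months, a log2 change of 0.0 (adjusted p = 0.982 over all probe sets). Probe set 1417584_at read 155 to 224 at 5 months and 168 to 255 at 30 months, a change of 0.06 (adjusted p = 0.772). The log2 difference of 1452078_a_at from 1426441_at went from 0.7 ± 0.07 to 0.41 ± 0.2 (SD, n = 5 each), a change of -0.28 with an exact permutation p of 0.0159 (0.0476 adjusted over the 6 comparisons), and its difference from 1417584_at gave -0.34 (exact p = 0.0397, adjusted 0.0794). With the 3 probe sets averaged, Slc11a2 was no longer called (log2 change -0.07, adjusted p = 0.322). The decrease was thus called in 1 of the 3 brighter probe sets of this gene, and 2 dim ones, 1441709_at (change -0.30) and 1447333_at (-0.26), were not called.

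**Figure D3:**
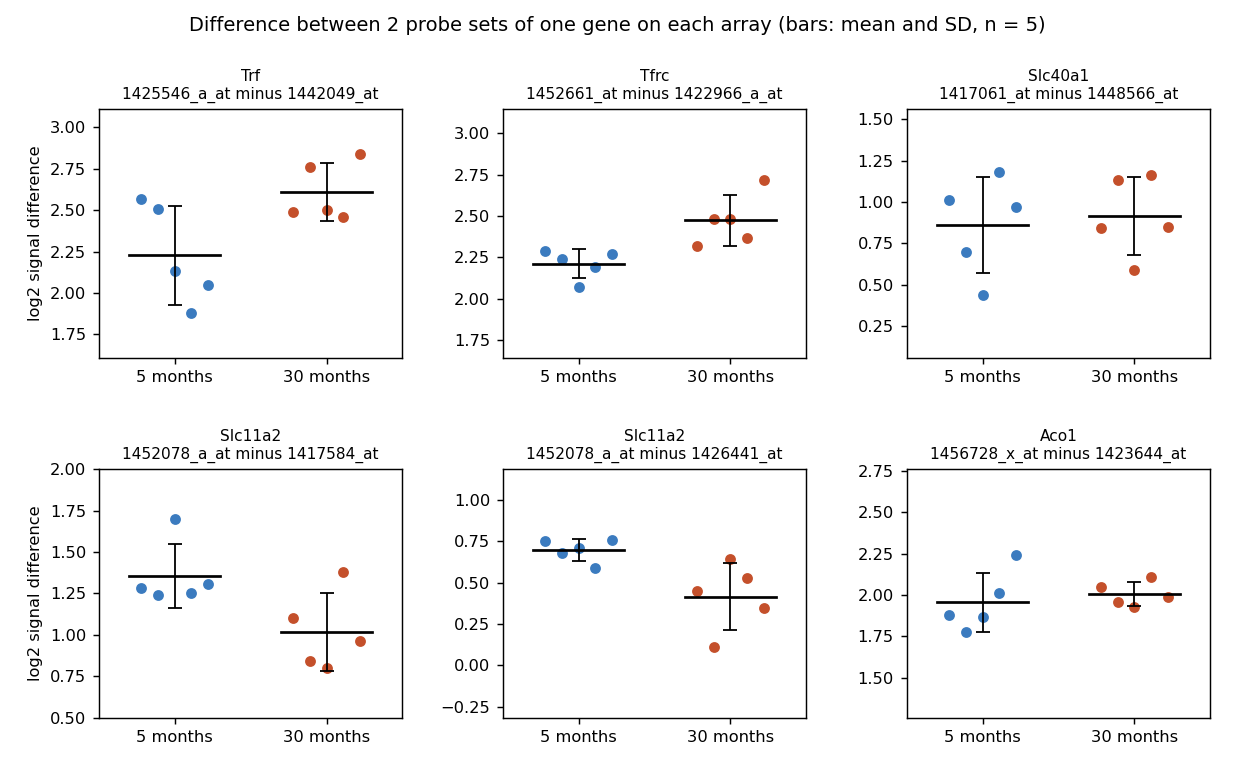
Log2 signal difference between the brightest probe set of a gene and another of the same gene above the filter (vertical axis, each panel spanning 1.5 log2 units) on the 5 arrays of each age, with the mean as a line and the SD as a bar. The Tfrc difference is higher on every old array, and both Slc11a2 differences have a lower mean at 30 months with overlapping ages.

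Slc40a1 encodes ferroportin, the cellular iron exporter (chromosome 1, 45908070 to 45926532). Its signal was 258, 235, 208, 228 and 225 at 5 months and 248, 253, 168, 255 and 211 at 30 months in probe set 1417061_at. The ages overlapped, and mouse 4 had the lowest value. The log2 change was -0.04 with a 95% interval of -0.28 to 0.2 (limma, adjusted p = 0.791). The second probe set above the filter, 1448566_at, gave -0.10 (adjusted p = 0.605), and the change in the difference between the 2 was 0.06 (exact permutation p = 0.746).

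Cp encodes ceruloplasmin, the copper ferroxidase that works with ferroportin (chromosome 3, 19956933 to 20009750). Its brightest probe set, 1417494_a_at, read 97.9, 98.8, 96.8, 93 and 103 at 5 months and 132, 173, 477, 127 and 104 at 30 months. The young arrays were close together, and the old ones ranged from a value barely above the young to the 477 of mouse 4. The mean log2 signal was 6.61 ± 0.05 and 7.42 ± 0.87 (SD, n = 5 each), a fold of 1.75 with a 95% interval of 1.1 to 2.76 (limma, adjusted p = 0.0459). The young mean lay below the filter of 6.89. Without mouse 4 the mean of the other 4 old arrays was 7.04 ± 0.3 (SD, n = 4), a log2 change of 0.43 or a fold of 1.35, which was not tested. The call was lost in 6 of the 9 fits that left out 1 other array (adjusted p up to 0.079) and in 8 of 16 other settings (up to 0.109).

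Of the other Cp probe sets, all below the filter, 1448735_at was called when each probe set was fitted on its own. It read 35.3, 41.3, 49.8, 43.9 and 50.7 at 5 months and 53.5, 71.2, 63.5, 67.4 and 60.6 at 30 months, with no overlap and with mouse 4 in the middle of the old mice (log2 change 0.52, adjusted p = 0.019). Probe set 1417495_x_at read 45.3 to 82.8 and 75.7 to 331, again highest in mouse 4 (0.97, adjusted p = 0.0666). The remaining 4 gave changes from -0.21 to 0.54 and were not called. In the authors' deposited table no Cp probe set met the authors' criteria.

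Astrocyte markers moved in the same direction as Cp. Of 10 on the array 9 were tested and 8 rose (median log2 change 0.47), beside 34% of all genes higher. Gfap, the intermediate filament of astrocytes, rose by a log2 change of 2.04 (adjusted p = 3.93e-09), and Aqp4, their water channel, by 0.73 (adjusted p = 6.66e-05). Their summed signal was 8008 to 9310 at 5 months and 12549 to 13705 at 30 months, with mouse 4 at 13096 inside the range of the old mice. For Cp minus the mean of these markers the change was 0.20 (exact permutation p = 0.849, adjusted 0.849 over 3), and -0.18 without mouse 4. The meningeal sum in mouse 4 was 7790, inside the old range of 6986 to 9143. Among its markers, Dcn was the highest of all 10 arrays in mouse 4 (532), and Lum, below the filter, the lowest of the old (46.5). The part of astrocytes or meninges in the Cp change was not tested beyond these values.

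Fth1 encodes the ferritin heavy chain, which oxidises iron (chromosome 19, 9980600 to 9985111), and Ftl1 the light chain, which helps form the mineral core (chromosome 7, 45457944 to 45459886). For Fth1 (1448771_a_at) the signals were 8345, 8244, 8073, 7991 and 7618 at 5 months and 8415, 8949, 7462, 8551 and 8671 at 30 months. Old mouse 4 was below all young arrays and the other old mice were above all of them. This did not hold in 1427021_s_at, a probe set shared by Fth1 and another gene. There old mouse 4 read 8598, above the young range of 7214 to 8591. The log2 change was 0.06 with a 95% interval of -0.04 to 0.16 (limma, adjusted p = 0.285), and the interval of the fold was 0.98 to 1.11.

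Ftl1 (1418364_a_at) read 2332, 2146, 2107, 2119 and 1923 at 5 months and 2522, 2832, 2194, 2522 and 2616 at 30 months. The overlap came from old mouse 4 and young mouse 1. The mean log2 signal rose from 11.05 ± 0.1 to 11.3 ± 0.13 (SD, n = 5 each), a fold of 1.19 with a 95% interval of 1.08 to 1.32 (limma, adjusted p = 0.00742).

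The signal difference between the 2 ferritin chains, a comparison added after the values were seen, is given as a description. Ftl1 minus Fth1 went from -1.92 ± 0.05 on the log2 scale in the young to -1.73 ± 0.04 in the old (SD, n = 5 each). The old arrays, mouse 4 included, were all above the young, and the change of 0.19 had an exact permutation p of 0.00794 (0.0119 adjusted over 3). After quantile normalization the change was 0.09 (exact p = 0.0238). Since the pair was picked on these values, these p-values are no independent evidence that the chains differ in their change.

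Other ferritin probe sets did not all move with Ftl1. Probe set 1446835_at, also annotated to Ftl1 but below the filter, read 57, 57.3, 61, 67.7 and 65.9 at 5 months and 44.4, 38.5, 29.3, 36.5 and 48.1 at 30 months, all old arrays below all young ones (log2 change -0.67, adjusted p = 0.00835 over all probe sets). It is the only other iron probe set beside those of Trf that met the authors' criteria, with a fold change of -1.56 in the authors' deposited table. Probe sets shared with other genes are uncertain. For 1422302_s_at, shared by Ftl1, Ftl2 and similar sequences, the log2 change was 0.05 (adjusted p = 0.46), and for 1427021_s_at, shared by Fth1 and Dpep2, it was 0.08 (adjusted p = 0.281). Over the 28 iron probe sets fitted on their own, 4 were called higher (2 of Trf and 1 each of Ftl1 and Cp) and 2 lower (1446835_at and the Slc11a2 probe set 1452078_a_at), beside 22.4% of all probe sets called in either direction.

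**Figure D4:**
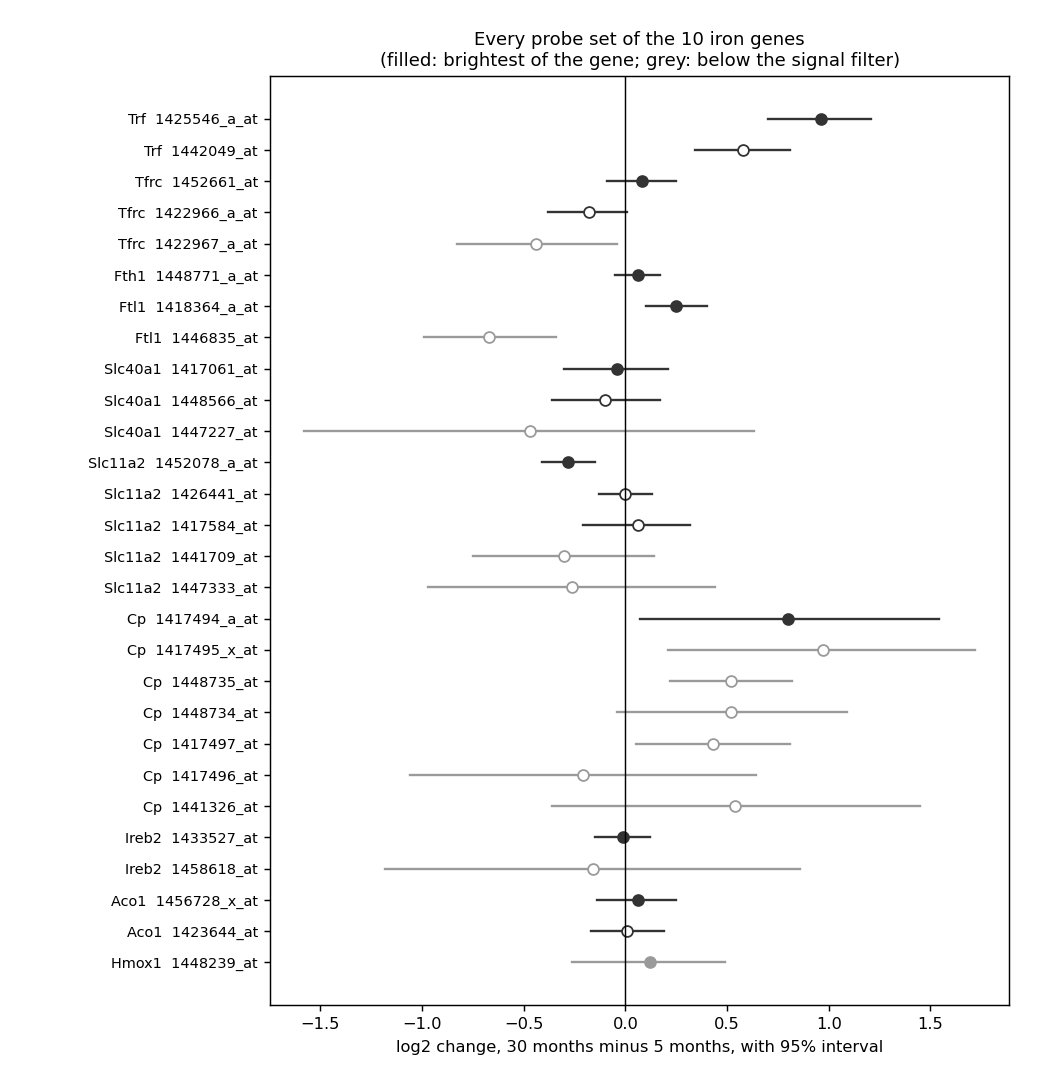
Log2 change from 5 to 30 months (horizontal axis) with its 95% interval for each of the 28 probe sets of the 10 iron genes, fitted on their own with limma over all probe sets. Filled points are the brightest probe set of a gene and grey ones lie below the filter; both Trf probe sets lie to the right of 0, and probe sets of Ftl1 and of Slc11a2 disagree within a gene.

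The sequences before the annotated starts of the ferritin genes are shown because the products of both genes assemble into 1 shell. They are the 150 bases upstream of the RefSeq start on GRCm38.p6, read along the gene. Matches to the letters CCAAT are in capitals, here all on the opposite strand (ATTGG).
Ftl1, chr7:45459887-45460036, minus strand: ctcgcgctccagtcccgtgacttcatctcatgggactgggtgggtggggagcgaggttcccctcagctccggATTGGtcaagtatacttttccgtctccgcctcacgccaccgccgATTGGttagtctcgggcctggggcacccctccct
Fth1, second annotated start, chr19:9982496-9982645, plus strand: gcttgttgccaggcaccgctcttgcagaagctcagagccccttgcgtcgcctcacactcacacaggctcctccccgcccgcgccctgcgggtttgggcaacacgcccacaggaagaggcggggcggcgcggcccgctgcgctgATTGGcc
The letters CCAAT were searched on both strands, and Ftl1 had 2 matches and the second Fth1 start 1. The first annotated Fth1 start had none. Of 32851 RefSeq promoters 24.5% had at least 1 match in 150 bases. The core of the antioxidant response element, TGACNNNGC, had no match on either strand in any of the 9 windows available for Tfrc, Fth1, Ftl1, Cp, Ireb2 and Aco1, and 6.8% of all promoters had one. Bases after the start were not searched. A match is a description of letters, and none of these data measure binding there.

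Aco1 and Ireb2 encode the iron regulatory proteins, of which the first doubles as cytosolic aconitase when it holds an iron-sulfur cluster. Aco1 (chromosome 4, 40143265 to 40199009) read 920, 946, 850, 944 and 1074 at 5 months and 1142, 1021, 817, 1048 and 921 at 30 months in probe set 1456728_x_at. The ages overlapped, and the log2 change was 0.06 with a 95% interval of -0.13 to 0.25 (limma, adjusted p = 0.609), and -0.07 after quantile normalization. Its second probe set, 1423644_at, read 228 to 275 and 214 to 277.

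Ireb2 (chromosome 9, 54862658 to 54912534) read 872, 912, 745, 826 and 798 at 5 months and 778, 844, 772, 822 and 894 at 30 months. The log2 change was -0.01 with a 95% interval of -0.16 to 0.13 (limma, adjusted p = 0.878). Its other probe set, 1458618_at, lay at or near the floor of 1 on most arrays and carries no level. Neither regulator had ages that were apart.

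Hmox1 encodes the inducible heme oxygenase, which frees iron from heme (chromosome 8, 75093618 to 75100593). Its 1 probe set, below the filter, read 64.9, 71.9, 75.5, 66.9 and 53.7 at 5 months and 59.8, 66.3, 109, 63.1 and 70 at 30 months. Only mouse 4 stood above the young range, and without it the log2 change was -0.03, with no test. In the fit without the filter the log2 change was 0.12 with a 95% interval of -0.25 to 0.48 (limma, adjusted p = 0.63).

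Further genes of iron and heme handling were grouped in 7 lists. Of 86 genes, 85 were on the array and 69 were tested. By limma 25 rose, 6 fell and 38 were not called, with a median log2 change of 0.07 beside 0.08 for all genes and 46.3% of all genes called. When the arrays were given a common median over the tested probe sets, 18 were higher and 15 lower, and after quantile normalization 19 and 14.

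Among genes of iron uptake and reduction, 8 of 16 were tested, 5 rose and 1 fell (median log2 change 0.21). Of all genes, 34% were higher and 12.3% lower. Lrp1, an endocytic receptor that takes up heme bound to hemopexin, read 1110 to 1382 at 5 months and 1507 to 1694 at 30 months (log2 change 0.35, adjusted p = 0.000662). Steap2, a metalloreductase, changed by 0.34 (adjusted p = 0.00198), though by 0.12 (adjusted p = 0.186) with its probe sets averaged, and Cybrd1, a ferric reductase, by 0.28 (adjusted p = 0.0073). Slc22a17, the lipocalin receptor, read 4691 to 4959 and 4341 to 4479, a change of -0.14 (adjusted p = 0.00295). In export and its hormonal control, 6 of 10 were tested and 1 rose, Bmpr2, a receptor of bone morphogenetic proteins (0.15, adjusted p = 0.00654), but not with the common median of tested probe sets (0.05, adjusted p = 0.283).

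Of 7 genes tested for iron chaperones and ferritin turnover, 2 rose and 1 fell, beside 34% and 12.3% of all genes. The poly(rC)-binding protein genes Pcbp4 and Pcbp2, the second known to deliver iron to ferritin, changed by 0.30 (adjusted p = 0.00269) and 0.16 (adjusted p = 0.0258). Pcbp4 was not called on a probe set without an x_at or s_at ending (0.17, adjusted p = 0.156). Ftmt, mitochondrial ferritin, read 132 to 147 at 5 months and 92.3 to 139 at 30 months, a change of -0.28 (adjusted p = 0.0407) that was not called in 7 of 10 fits leaving out an array. Its 30-month mean of 6.85 lay below the filter of 6.89.

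Heme synthesis had 12 of 13 genes tested, of which 3 rose and 1 fell (median 0.03), beside 34% and 12.3% of all genes. Alas1, the rate-limiting first enzyme outside red cells, read 793 to 864 at 5 months and 954 to 1048 at 30 months (log2 change 0.27, adjusted p = 0.000853). Urod, a middle enzyme of the path, rose by 0.54 (adjusted p = 9.77e-05) and Alad, the second enzyme, by 0.47 (adjusted p = 0.0137). Tmem14c, a mitochondrial porphyrin transporter, read 1641 to 1743 and 1254 to 1522 (-0.31, adjusted p = 0.00067).

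The list of heme uptake, export and breakdown had 4 of 8 tested genes higher and 1 lower, beside 34% and 12.3% of all genes. Its median of 0.32, the highest of the 7, rests on these 8 genes, with changes from -0.91 to 0.98. Blvrb, a biliverdin reductase, read 121, 83.1, 82.2, 119 and 96.6 at 5 months and 173, 212, 172, 237 and 189 at 30 months, with every old array above every young one. The 5-month mean of Blvrb, 6.63 on the log2 scale, lay below the filter of 6.89, so it was tested only through its old arrays. Its log2 change was 0.98 (adjusted p = 0.000105), beside 0.55 for Bach1, the heme-sensing repressor of Hmox1 (adjusted p = 7.42e-05), and 0.55 for Slc46a1, a folate and heme transporter (adjusted p = 0.000214). Flvcr2, described as a heme importer and as a choline transporter of brain vessels, read 169, 180, 199, 257 and 234 at 5 months and 161, 89.9, 102, 116 and 89.7 at 30 months. All old arrays were below the young, with mouse 2 the nearest (-0.91, adjusted p = 0.00064). Here the 30-month mean, 6.77, lay below the filter, and Flvcr2 was tested only through its young arrays.

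All 23 genes of mitochondrial iron and iron-sulfur clusters were tested, and 7 rose and 2 fell (median 0.05), beside 34% and 12.3% of all genes. Cisd3, a cluster protein of mitochondria, read 519 to 679 at 5 months and 760 to 947 at 30 months (log2 change 0.43, adjusted p = 0.000885), and Slc25a28, mitoferrin 2, rose by 0.37 (adjusted p = 0.000598). The scaffold gene Iscu and the co-chaperone gene Hscb changed by -0.17 (adjusted p = 0.0103) and -0.33 (adjusted p = 0.00312).

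The last list held 5 genes drawn up as other messenger RNAs with an iron-responsive element. Of them 3 rose, beside 34% of all genes. Epas1, the hypoxia factor whose element is in the 5′ end, read 1117 to 1342 and 1651 to 1805 (log2 change 0.49, adjusted p = 6.53e-05), and Cdc42bpa, a kinase, changed by 0.15 (adjusted p = 0.0339), a call lost in 6 of 10 fits that left out an array. Slc25a39, a mitochondrial glutathione carrier, changed by 0.44 (adjusted p = 0.000479) but by -0.19 (adjusted p = 0.0352) on a probe set without an x_at or s_at ending, so its direction is not settled, and its membership of such a list is not firm. Other calls named above also depended on the scaling. With the common median of tested probe sets Cybrd1 (adjusted p = 0.0616), Pcbp2 (0.276) and Cdc42bpa (0.389) were not called. Alad was not called after quantile normalization (adjusted p = 0.0551), nor Iscu with a common median of all probe sets (0.0524).

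**Figure D5:**
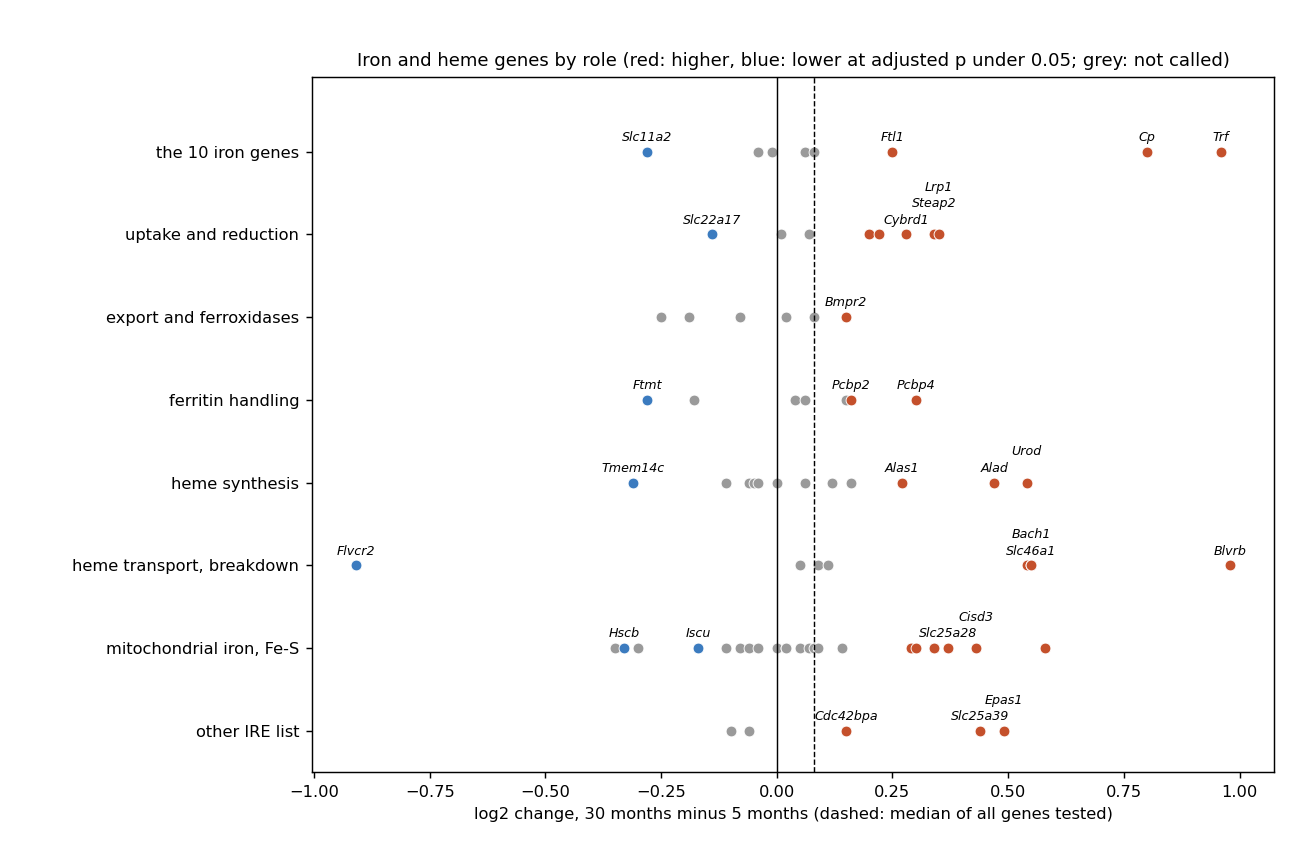
Log2 change from 5 to 30 months (horizontal axis) of each tested gene among the 10 iron genes and the 7 wider lists, with genes called higher in red, lower in blue and not called in grey, and names for those described in the text. Trf and Blvrb are farthest to the right and Flvcr2 farthest to the left. The mean signals of Blvrb at 5 months and of Flvcr2 at 30 months lay below the filter.

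Markers of the remaining cell types were read against all genes tested, of which 34% were higher and 12.3% lower. Microglial markers had 5 of 9 tested genes higher and 2 lower, and Cx3cr1 and Csf1r, their surface receptors, were the 2 lower ones (-0.40, adjusted p = 0.00633, and -0.26, adjusted p = 0.017). Their sum was 7903 to 8726 at 5 months and 10700 to 11035 at 30 months. Endothelial and pericyte markers had 4 of 5 tested genes higher, with sums of 2605 to 3131 and 3942 to 4408, while Cldn5, a tight junction gene, had a log2 change of 0.14 (adjusted p = 0.176) and Pecam1 was below the filter. Neuronal markers had 2 of 10 higher, with sums of 38994 to 42303 and 40865 to 43768, and Rbfox3 and Syt1 had log2 changes of 0.0 and 0.03. Of 8 meningeal markers 4 were tested and 1 fell, with Dcn at 0.34 (adjusted p = 0.0815) and Lum below the filter. Blood cells had 1 marker tested, Hba-a1, the alpha globin, at -0.10 (adjusted p = 0.602). None of the markers was at the floor on all arrays, and the part of these cell types in the iron changes was not tested.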

How the data were processed

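Neocortex RNA of 10 mice was measured on 1 Affymetrix Mouse 430 2.0 array each. The deposited values are linear probe set intensities. The submitters' processing notes name GCOS, and how probes were summarised, background corrected and scaled is not given in the sources used. A second deposited table held the same intensities (largest difference 0) beside the authors' fold change as a score, its bounds and a p-value, per the file headers. In all, 4034 probe sets met the authors' criteria (2667 higher, 1367 lower).

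Probe sets were named through their gene identifier (36239) or accession (60) with a RefSeq table of GRCm38.p6. A further 1261 had several genes and 7477 none, and these were not tested. The arrays carry no build, and printed coordinates are those of the RefSeq genes. Signals under 1 (55 values) were raised to 1 before taking log2, without rescaling. Probe sets with a mean above 6.89 were tested (22518), the brightest per gene being kept. The 11963 genes were fitted with limma 3.58.1 (R 4.3.3), with age as the term and a variance trend, and Benjamini-Hochberg values were taken over all genes. In a second fit all 45037 probe sets entered without a filter. Of all genes 6431 had an unadjusted p under 0.05. Per-array differences were tested by exact permutation over all 252 splits, two-sided. Figures were made with Python 3.11.15 and matplotlib 3.10.9.

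The members, lists and tests were chosen with earlier results of these data known. All 10 genes with every probe set are described. From each wider list up to 3 called genes with the largest rise and up to 3 with the largest fall are named, and from each marker list its first 2, except a few that are not reported here. The labels do not say whether mice of an age shared a litter or processing day. In the authors' array names, every old array carries the prefix SK and no young array does. The meaning of this prefix is not given. Any difference that it marks would coincide with age, could not be separated from it in these data and was not tested. Mouse numbers did not pair the ages. Alternatives covered scaling, offsets, filters, probe set rules, variance models, leaving out each array and a replicate block.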

Additional observations from a re-analysis of the deposited data

Results flagged for a closer look

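In 3 of 32 sets of 5 arrays (16 probe sets at each of the 2 ages) the highest or lowest array stood apart from the rest, and chance gives about 1 in 20. The gap to the nearest array, as a share of the whole range of the 5 on the log2 scale, was above 0.71 in each. Among 30-month mice, Hmox1 (1448239_at) read 109 in mouse 4 and 59.8 to 70 in the others, a gap of 0.74 of the range. For Slc40a1 (1448566_at) the 138 of old mouse 2 stood above the other old values of 112 to 117, a gap of 0.8. In the 5-month mice, Tfrc (1422966_a_at) read 439 in mouse 5 and 471 to 483 in the others, a gap of 0.74.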

How the results depend on the processing

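Of the iron genes tested, 3 were called higher and 1 lower, beside 34% and 12.3% of all genes. Leaving out each array gave 2 to 4 higher and 1 to 1 lower, and with probe sets averaged 0 were lower. In the wider iron list the 6 lower calls became 15 with the common median of tested probe sets and 14 after quantile normalization, and leaving out an array gave 22 to 26 higher and 5 to 7 lower. In the marker lists the 5 lower calls became 8 with that common median, 1 by exact permutation, 3 with probe sets averaged and 3 with the replicate block, and leaving out an array gave 23 to 29 higher and 4 to 5 lower. Over all genes 2602 were higher and 2702 lower with that common median, 2738 and 2435 after quantile normalization, and leaving out an array gave 3544 to 4124 higher and 1188 to 1553 lower.

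Sign changes touched only changes near 0, apart from Slc25a39 (-0.19 without x_at and s_at probe sets) and the Cp difference from astrocyte markers. With the common median of tested probe sets the log2 change was -0.02 for Tfrc, -0.03 for Fth1, -0.03 for Aco1, -0.06 for Mbp, -0.09 for Rbfox3 and -0.06 for Syt1. After quantile normalization it was -0.02 for Tfrc, -0.07 for Aco1, -0.01 for Rbfox3 and -0.04 for the difference between the Aco1 probe sets. With probe sets averaged it was -0.05 for Tfrc and -0.07 for Rbfox3. Slc40a1 gave 0.05 with array weights, and Ireb2 gave 0.01 with a common median of all probe sets. Leaving out each array gave ranges of -0.09 to 0.06 for Slc40a1, -0.05 to 0.02 for Ireb2, -0.05 to 0.14 for the Slc40a1 probe set difference, -0.18 to 0.39 for Cp minus astrocyte markers, -0.02 to 0.02 for Rbfox3 and 0.0 to 0.06 for Syt1. The cause of these changes was not tested.

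Same-numbered mice of the 2 ages correlated at -0.33, -0.04, 0.084 and 0.108 in their deviations from the age means, so the numbers did not pair them. With mouse number as a replicate block over mice 2 to 5, Trf changed by 0.93 (adjusted p = 0.000423), and Slc40a1 (0.02) and Rbfox3 (0.0) changed sign. Ftmt, Iscu, Cybrd1, Cdc42bpa and Csf1r were no longer called, and all genes gave 3450 higher and 1019 lower. The second deposited table holds the same intensities and gave no other value. Fitting every probe set on its own was applied to single genes only.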

Other observations

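A probe set without a gene identifier, 1455393_at, whose description names ceruloplasmin, lay outside the rule that chose the Cp probe sets. It read 46.9, 35.3, 38.5, 37.7 and 45.1 at 5 months and 60.8, 94.3, 268, 58.4 and 57 at 30 months. The old arrays were all above the young, and mouse 4 was again the highest. The log2 change was 1.11 (limma, adjusted p = 0.0543 over all probe sets).

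Further called genes of the wider lists, outside the rule for named genes, were chosen after their values were seen. Blvra, the main biliverdin reductase, rose by a log2 change of 0.54 (adjusted p = 0.000104), so both biliverdin reductases were higher at 30 months. Slc25a37, mitoferrin 1, rose by 0.29 (adjusted p = 0.0116). Mcoln1, an endolysosomal cation channel that conducts iron, rose by 0.20 (adjusted p = 0.00489).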
